A study of Mus musculus with 16 samples.

Results

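The genes described are 10 members of the fibroblast growth factor (FGF) to ERK signalling axis: the receptors Fgfr1 and Fgfr2, the ETS transcription factors Etv1, Etv4 and Etv5, and the feedback inhibitors Spry1, Spry2, Spry4, Spred1 and Dusp6. They were taken by symbol, and all 10 were present among the 26219 genes of each of 2 expression tables. Both tables hold 3′ RNA sequencing of mouse primordial germ cells (PGCs), which give rise to eggs and sperm, in a study of the requirement for the repressor PRDM1 (BLIMP1) in PGC development. The first table had 8 libraries at E11.5 (E, embryonic day) on a C57BL/6 background, 4 of control and 4 labelled conditional knockout (CKO). Controls were Prdm1(flox/flox) with a Rosa26(neo-EYFP/+) reporter, and CKO embryos carried in addition the transgene Dppa3-MCMP(Tg/0), a tamoxifen-inducible Cre under a Dppa3 promoter that is active in germ cells. The dams of both groups had received 4-hydroxytamoxifen at E10.5, 3 mg per 25 g of body weight, so the Cre transgene and the intended deletion come together. Cells were sorted on EYFP or with an antibody to SSEA-1, and the labels do not tie a gate to a group. The controls carried no Cre transgene, so an EYFP gate could hold only CKO cells if the reporter depends on Cre. Gate and genotype may therefore come together and could then not be told apart. The second table had 8 libraries of wild-type PGCs carrying Dppa3(EGFP/+), from ICR and C57BL/6 mice in a 1:1 mix, sorted on EGFP, with 2 libraries each at E10.5, E11.5, E13.5 male and E13.5 female.

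FGFs bind receptor tyrosine kinases together with heparan sulfate chains, and the activated receptor signals through RAS, RAF and MEK to the kinase ERK. ERK relieves repression by Capicua at the ETV, SPRY and DUSP6 genes, so their transcripts are widely used as readouts of pathway activity, while Sprouty, SPRED and DUSP6 proteins damp the same pathway. In the germ line, FGF signalling supports PGC growth and migration, and an FGF together with KIT ligand and LIF converts cultured PGCs into pluripotent stem cells. After colonising the gonad, male germ cells enter mitotic arrest and female germ cells enter meiosis.

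Values are RPM, read numbers scaled to the gene-assigned total of a library. They are not divided by transcript length, so levels were compared between libraries and never between genes. The depth, read from the spacing of low values, was 2797474 to 5032142 reads in the floxed and 1484743 to 4782791 in the wild-type libraries, so a floor of 3 reads corresponded to 0.596 to 1.07 RPM and 0.627 to 2.02 RPM. Summed germ cell markers (10 genes) reached 3562 to 4371 RPM in the floxed libraries and 4923 to 9730 RPM in the wild-type libraries. Prdm1 stood at 50.7 to 73.0 RPM in controls and 76.6 to 89.4 RPM in CKO-labelled libraries, and a 3′ tag does not check whether the floxed segment was removed. In these bulk samples, fewer cells of a type and less RNA per cell cannot be told apart. Whether replicates are separate litters is not stated, and the p-values therefore reflect only how far the libraries at hand vary, which may be technical.

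In wild-type PGCs 5 of the 10 genes fell and 2 rose from E11.5 to E13.5 in males, and 6 fell and 1 rose in females. Dusp6, Etv4, Etv5 and Spry4 fell in both sexes. Etv1 went opposite ways, rising 7.47-fold in males and falling 3.23-fold in females, and Fgfr1 fell 2.05-fold in males. Between E10.5 and E11.5 Spred1 alone of the 10 passed the test, which with 2 libraries a group does not show that the others were unchanged. All 10 genes passed the filter on low values in both tables.

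The counts are read against all genes tested, a gene being called at an adjusted p under 0.05 in limma, on values of log2(RPM + 1). From E10.5 to E11.5, 1 of the 10 genes was called, lower, against 4.28% of all 10749 tested (2.31% rising, 1.97% falling). From E11.5 to E13.5 in males, 2 were called higher and 5 lower, against 38.2% of all genes (22.3% rising, 15.9% falling). From E11.5 to E13.5 in females, 1 was called higher and 6 lower, against 51.2% of all genes (31.2% rising, 20.0% falling). In E13.5 females against males, 1 was called higher and 5 lower, against 37.6% of all genes (21.2% rising, 16.4% falling). The 2 groups did not overlap for 6, 10, 8 and 7 of the 10 genes in these 4 comparisons, against 46.2%, 66.2%, 74.9% and 71.1% of all genes. The median log2 difference of the 10 genes was -0.13, -0.66, -1.05 and -0.65, in the same order, beside 0.02, 0.11, 0.13 and 0.05 over all genes tested. The shares of falling genes were above those of all genes in the 3 comparisons at E13.5. The share of rising genes in males was near that of all genes. Both E13.5 comparisons use the same E11.5 libraries, as does the comparison with E10.5, and the comparison of sexes uses the E13.5 libraries again.

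**Figure D1:**
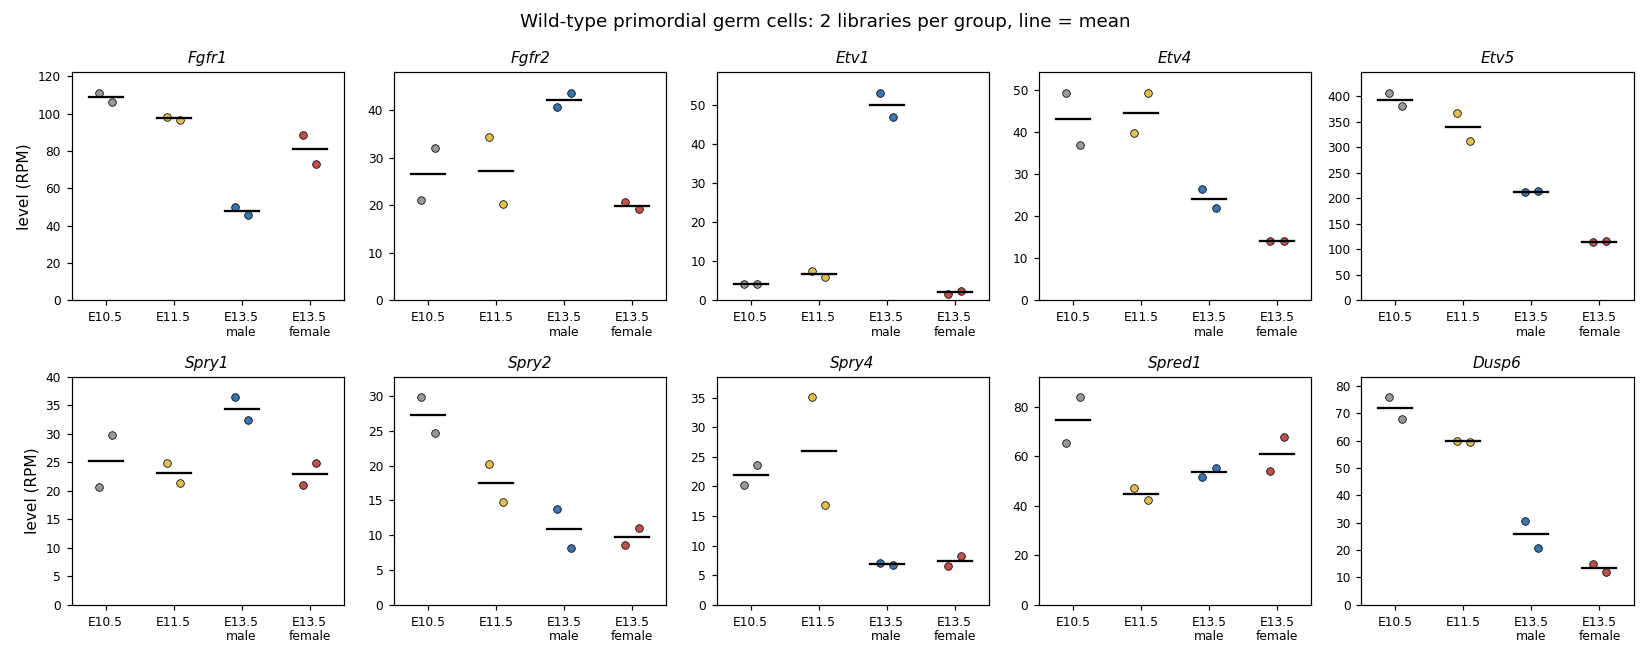
RPM of the 10 genes in the 8 wild-type libraries, by stage and sex; each point is a library and each line a mean of 2 libraries. Etv1 stands at 46.8 and 53.1 RPM in E13.5 males and at most 7.41 RPM elsewhere, and Dusp6 and Etv5 fall from E11.5 to E13.5 male to E13.5 female.

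Markers of other cell types also differed between the wild-type groups. Summed gonadal somatic and mesenchymal markers (11 genes) were 60.5 and 64.3 at E10.5, 6.06 to 7.12 at E11.5, 15.4 to 16.2 RPM in E13.5 males and 4.66 to 5.23 RPM in E13.5 females. Summed erythroid markers were 213 to 224 RPM at E10.5 and 5.98 to 14.8 RPM at E11.5. At E13.5 they were 2.67 to 3.52 RPM in males and 22.8 to 32.6 RPM in females. Summed mesonephric epithelium markers (5 genes) were 23.9 to 28.5 RPM at E10.5 and 45.0 to 46.5 RPM at E11.5. They were 78.2 to 80.6 RPM in E13.5 males, where 1 of the 5 genes reached 5 RPM, and 20.8 to 22.2 RPM in females. Summed pre-granulosa markers were 4.27 to 8.58 RPM at E10.5 and E11.5. In E13.5 males they were 8.02 to 14.8 RPM, and in females 12.1 to 17.3 RPM. Summed endothelial markers were 30.3 to 51.0 RPM at E10.5 and E11.5 and 6.27 to 10.7 RPM at E13.5. Summed Sertoli cell markers (7 genes) were 26.3 to 35.0 RPM at E11.5, 28.5 to 42.1 RPM in E13.5 males and 22.2 to 26.8 RPM in E13.5 females. A large part of these sums was Aard, which averaged 27.0 RPM at E11.5, 21.0 RPM in E13.5 males and 23.3 RPM in E13.5 females. Of the other Sertoli markers, Amh was listed at 0 in both sexes at E13.5, and Sox9 at 0 in the females. Ptgds was 5.63 to 11.4 RPM in males, at most 0.274 RPM in females and listed at 0 at E11.5, and Dhh was 1.06 to 5.01 RPM in males and listed at 0 in the other 2 groups. The part of these cells in the differences below was not tested.

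The receptor Fgfr1 (Entrez 14182, GRCm38.p6 chromosome 8, 25518759 to 25575718) stood at 111 and 106 at E10.5, 98.3 and 96.5 at E11.5, 49.8 and 45.4 in E13.5 males and 88.4 and 73.2 RPM in E13.5 females. No adjacent pair in this order of levels overlapped, and the male libraries were the lowest. The fall from E11.5 to E13.5 males was 1.02 ± 0.15 (SE) on the log2 scale (limma adjusted p = 2.4e-06). In females the change was -0.27 ± 0.15 with an adjusted p of 0.118, and the difference between the sexes was 0.75 ± 0.15, higher in females (limma adjusted p = 0.000168). Long noncoding RNAs that RefSeq places over Fgfr1 and Dusp6 were not analysed here, and how strand was counted is not given in the sources used here.

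Fgfr2 (Entrez 14183, chromosome 7, 130162451 to 130266808), a receptor for a partly different set of FGFs, had the opposite order at E13.5. Its level was 21.2 and 32.0 at E10.5, 34.3 and 20.2 at E11.5, 40.7 and 43.7 in E13.5 males and 20.7 and 19.2 RPM in E13.5 females. The male libraries lay above all the others, while the E10.5 and E11.5 libraries overlapped. Females were lower than males by 1.04 ± 0.25 (SE) on the log2 scale, 2.12-fold in RPM (limma adjusted p = 0.00151). The rise from E11.5 to males, 0.66 ± 0.25, passed narrowly (limma adjusted p = 0.0387) and rested on E11.5 library 2, without which it was 0.29 with an adjusted p of 0.437. The call was lost under 9 of 14 alternatives, among them also without either male library (adjusted p 0.126 and 0.191) and with either other scaling of the libraries (0.0666 and 0.0730).

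Etv1 (Entrez 14009, chromosome 12, 38780082 to 38870483), an ETS activator induced by ERK signalling, had the largest log2 change of the 10 genes from E11.5 to males and between the sexes. It was 4.06 and 4.16 at E10.5, 7.41 and 5.98 at E11.5, 53.1 and 46.8 in E13.5 males and 1.67 and 2.47 RPM in E13.5 females. The 4 groups did not overlap, with males highest and females lowest. The female values rest on 8 and 9 reads, with 95% exact Poisson intervals of 0.722 to 3.30 RPM and 1.13 to 4.68 RPM that cover counting error only. Males rose over E11.5 by 2.73 ± 0.36 (SE) on the log2 scale (limma adjusted p = 7.68e-07). Females fell by 1.33 ± 0.36 on the same scale (limma adjusted p = 0.00311). Males exceeded females 24.1-fold in RPM, a log2 difference of -4.06 ± 0.36 for females against males that is understated by the pseudocount (limma adjusted p = 6.48e-10).

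RefSeq lists 2 start sites for Etv1 with a promoter window of 250 bases before to 50 after the start, and both are shown because a 3′ tag does not say which start made the male transcript. The first lies at chr12:38779832-38780131 and the second at chr12:38783461-38783760, plus strand, GRCm38.p6. Their GC content was 48.7% and 44.0%, and they held 12 and 3 CpG dinucleotides, where the medians over all promoters in the table were 52.7% and 7. No capitals are used, since none of the motifs searched in the 10 genes' promoters was found in them.
Etv1 first start: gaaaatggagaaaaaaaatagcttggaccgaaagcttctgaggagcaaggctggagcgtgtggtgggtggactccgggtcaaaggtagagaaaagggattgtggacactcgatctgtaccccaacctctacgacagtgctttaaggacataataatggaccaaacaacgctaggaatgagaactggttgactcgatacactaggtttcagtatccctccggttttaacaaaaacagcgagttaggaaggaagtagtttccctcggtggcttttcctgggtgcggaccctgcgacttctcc
Etv1 second start: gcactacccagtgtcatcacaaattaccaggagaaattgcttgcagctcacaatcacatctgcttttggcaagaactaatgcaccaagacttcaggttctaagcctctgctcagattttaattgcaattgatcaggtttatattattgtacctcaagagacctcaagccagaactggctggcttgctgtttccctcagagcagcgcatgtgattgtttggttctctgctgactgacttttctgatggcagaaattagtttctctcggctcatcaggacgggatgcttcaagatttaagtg

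Etv4 (Entrez 18612, chromosome 11, 101769747 to 101785310) and Etv5 (Entrez 104156, chromosome 16, 22381313 to 22439570) are ETS activators of the same subfamily. Etv4 was 49.2 and 36.8 at E10.5, 39.7 and 49.3 at E11.5, 26.4 and 21.8 in E13.5 males and 14.0 RPM in both E13.5 female libraries. The E10.5 and E11.5 libraries overlapped, and males and then females lay below them. Etv4 fell from E11.5 by 0.86 ± 0.23 (SE) on the log2 scale in males and by 1.59 ± 0.23 in females (limma adjusted p = 0.00378 and 1.68e-06).

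Females were lower than males for Etv4 by 0.74 ± 0.23 (limma adjusted p = 0.0114), a call lost without male library 1 (adjusted p 0.112) or either female library (0.0547 and 0.0556). The male fall of Etv4 was lost without male library 2 (adjusted p 0.0592). Etv5 was 406 and 380 at E10.5, 366 and 313 at E11.5, 212 and 214 in E13.5 males and 113 and 116 RPM in E13.5 females. Its 4 groups did not overlap and fell in that order. The falls from E11.5 were 0.67 ± 0.11 in males and 1.55 ± 0.11 in females on the log2 scale (limma adjusted p = 1.23e-05 and 2.93e-12). Females were below males by 0.88 ± 0.11 (limma adjusted p = 1.58e-07). Unlike Etv1, both genes were below their E11.5 level in both sexes.

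Dusp6 (Entrez 67603, chromosome 10, 99263231 to 99267489) encodes a cytoplasmic phosphatase that dephosphorylates ERK. Its level was 75.8 and 67.9 at E10.5, 59.9 and 59.5 at E11.5, 30.7 and 20.8 in E13.5 males and 14.8 and 12.1 RPM in E13.5 females. The 4 groups did not overlap, in the same descending order as Etv5. The fall from E11.5 was 1.21 ± 0.21 (SE) on the log2 scale in males and 2.08 ± 0.21 in females, 2.32-fold and 4.44-fold in RPM (limma adjusted p = 4.82e-05 and 5.97e-09). Females were lower than males by 0.87 ± 0.21 (limma adjusted p = 0.00178), a call lost without male library 1 (adjusted p 0.0708).

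Spry4 (Entrez 24066, chromosome 18, 38586247 to 38601347), a Sprouty inhibitor of receptor to RAS signalling, fell in both sexes without a detected difference between them. It was 20.3 and 23.7 at E10.5, 35.0 and 16.8 at E11.5, 7.01 and 6.69 in E13.5 males and 6.48 and 8.22 RPM in E13.5 females. The E11.5 pair was far apart and enclosed the E10.5 pair, and all E13.5 libraries lay below both stages. The falls from E11.5 were 1.69 ± 0.33 and 1.61 ± 0.33 on the log2 scale in males and females (limma adjusted p = 0.000187 and 0.000213). The difference between the sexes was 0.08, with a 95% interval from -0.60 to 0.76.

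Spry1 (Entrez 24063, chromosome 3, 37639947 to 37644599) is another Sprouty inhibitor and was called in no comparison. It stood at 20.8 and 29.8 at E10.5, 24.9 and 21.4 at E11.5, 36.4 and 32.4 in E13.5 males and 21.1 and 24.9 RPM in E13.5 females. The male libraries were above the other 6, which overlapped one another. The male difference from E11.5 was 0.55 ± 0.24 (SE) on the log2 scale (limma adjusted p = 0.0654) and the female difference from males -0.56 ± 0.24 (adjusted p = 0.0630).

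Spred1 (Entrez 114715, chromosome 2, 117121071 to 117182279), which recruits the RAS inhibitor neurofibromin to the membrane, was the 1 gene called between E10.5 and E11.5. Its levels were 65.5 and 83.9 at E10.5, 47.1 and 42.4 at E11.5, 51.8 and 55.3 in E13.5 males and 54.1 and 68.0 RPM in E13.5 females. The E11.5 libraries were lower than all the others, and the E10.5 and female libraries overlapped. The fall from E10.5 to E11.5 was 0.72 ± 0.17 (SE) on the log2 scale (limma adjusted p = 0.0136), and the call was lost without E10.5 library 2 (adjusted p 0.210), without E11.5 library 2 (0.0729), without the filter (0.112), without the variance trend (0.152) and with the 2 groups fitted alone (0.105). The summed erythroid and somatic markers fell between the same libraries, as given above, and their part in the result was not tested. The rise from E11.5 to females, 0.43 ± 0.17 (limma adjusted p = 0.0371), was lost under 7 of 14 alternatives, among them either other scaling (adjusted p 0.118 and 0.135) and leaving out E11.5 library 2 (0.150) or female library 2 (0.345).

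Spry2 (Entrez 24064, chromosome 14, 105891947 to 105896819), the Sprouty member that turned out to differ in the floxed comparison, had lower values at each later stage of the wild-type series. It was 29.8 and 24.7 at E10.5, 20.2 and 14.8 at E11.5, 13.7 and 8.10 in E13.5 males and 8.57 and 11.0 RPM in E13.5 females. The E10.5, E11.5 and E13.5 libraries did not overlap, and the sexes did. From E10.5 to E11.5 the difference of -0.62 on the log2 scale did not pass (limma adjusted p = 0.273). The decline from E11.5 to females was 0.77 ± 0.31 (SE) on the log2 scale (limma adjusted p = 0.0368). That call was lost under 6 of 14 alternatives, among them without E11.5 library 1 (adjusted p 0.208) and without female library 1 (0.212) or 2 (0.0579). In males the difference from E11.5 was -0.66 ± 0.31 with an adjusted p of 0.0905, and the sexes differed by -0.11, with a 95% interval from -0.74 to 0.52.

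In the floxed libraries 1 of the 10 genes, Spry2, was called in CKO-labelled against control PGCs, against 2.43% of all 9384 tested (1.93% rising, 0.501% falling). Spry2 was 2.07-fold higher in the CKO-labelled libraries. The other 9 genes did not pass the test, 7 of them with lower and 2 with higher estimates. The median log2 difference over the 10 genes was -0.14, beside -0.01 over all genes tested. The groups did not overlap for Fgfr1, as for 8.19% of all genes tested.

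**Figure D2:**
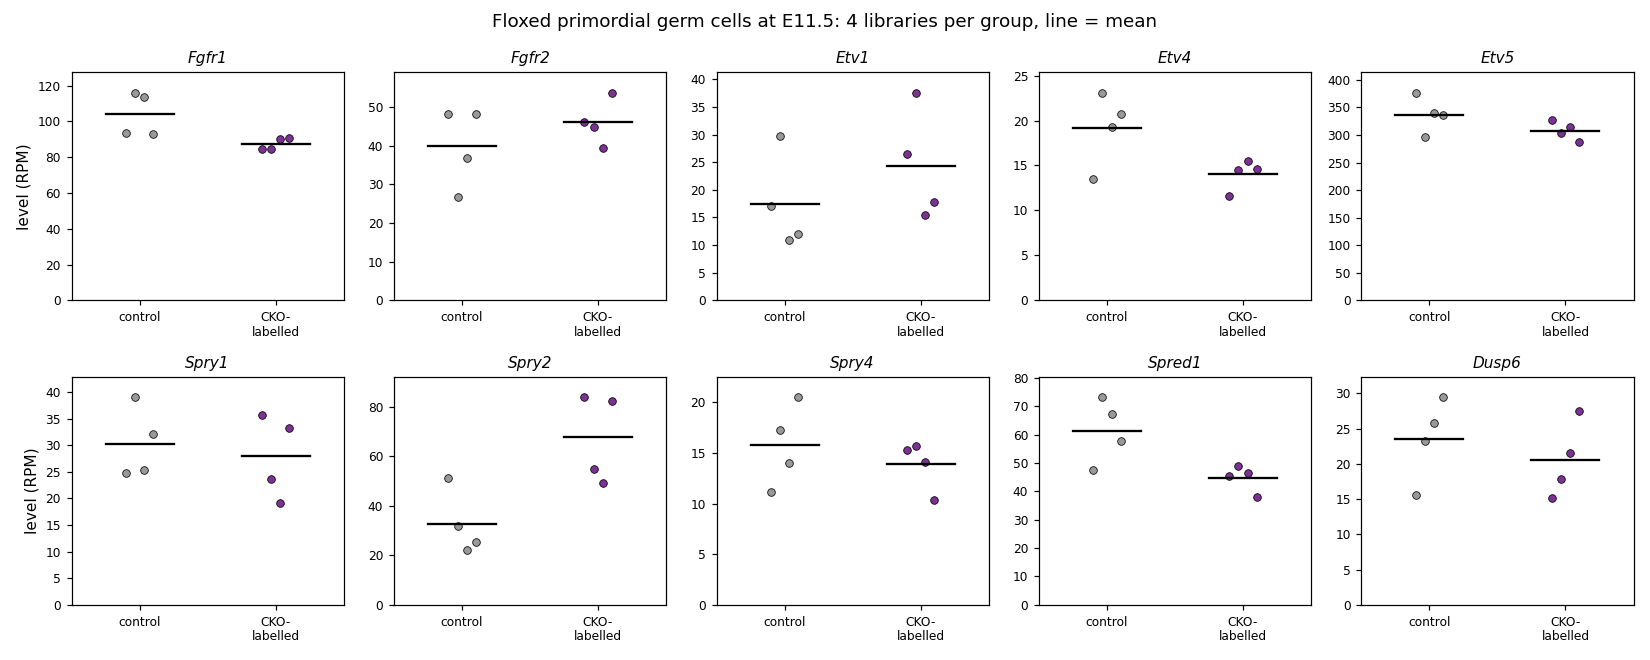
RPM of the 10 genes in the 4 control and 4 CKO-labelled libraries at E11.5; each point is a library, in replicate order from left to right, and each line a group mean. Spry2 lies between 49.1 and 83.8 RPM in the CKO-labelled libraries and between 22.3 and 51.2 RPM in the controls.

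Spry2 measured 51.2, 31.8, 22.3 and 25.4 RPM in control libraries 1 to 4, a mean of 32.7 ± 12.96 (SD, n = 4), and 83.8, 55.0, 49.1 and 82.6 RPM in CKO-labelled libraries 1 to 4, a mean of 67.6 ± 18.2 (SD, n = 4). Of the CKO-labelled libraries, number 3 alone fell below the highest control, number 1. The log2 difference was 1.06 ± 0.24 (SE), with a 95% interval from 0.54 to 1.58 (limma adjusted p = 0.0355). The direction was the same under all 19 alternatives, and the call held under 10 of them. It was lost without the filter (adjusted p 0.144), without the variance trend (0.0964), and without control 2 (0.0695), control 3 (0.116), control 4 (0.111), CKO-labelled 1 (0.133), CKO-labelled 2 (0.0587) or CKO-labelled 4 (0.102).

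The CKO-labelled libraries with the most Spry2, numbers 1 and 4, were also those with the most somatic marker RNA. Summed gonadal somatic and mesenchymal markers were 12.9, 73.2, 20.8 and 29.9 RPM in controls 1 to 4 and 104.5, 19.5, 9.76 and 259.5 RPM in CKO-labelled 1 to 4, with all 11 markers above 0 in at least 1 library of each group. Summed endothelial markers ran from 32.6 to 41.0 RPM in controls and from 31.9 to 129 RPM in CKO-labelled libraries. Summed pre-granulosa markers (5 genes) were 1.18, 8.75, 2.41 and 4.95 RPM in controls and 17.0, 7.15, 9.47 and 44.7 RPM in CKO-labelled 1 to 4. Sertoli and mesonephric epithelium sums reached 70.4 and 56.5 RPM in controls and 38.2 and 28.3 RPM in CKO-labelled libraries. CKO-labelled libraries 2 and 3, with somatic sums of 19.5 and 9.76 RPM, held 55.0 and 49.1 RPM of Spry2, above controls 2 to 4. Control 1, with a somatic sum of 12.9 RPM, lay between these 2 libraries at 51.2 RPM. The part of somatic cells in the Spry2 difference was not tested, nor was that of the sort gate. With the log2 somatic sum as a covariate the difference was 0.97 and the adjusted p 0.0657. Without control 1 and CKO-labelled 4 it was 1.19 with an adjusted p of 0.00287, but control 1 held the most Spry2 of the controls, so leaving it out widens the gap by construction.

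**Figure D3:**
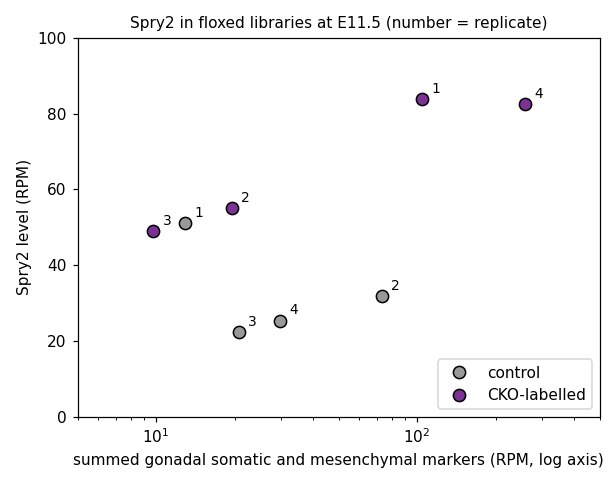
Spry2 (RPM) against the summed RPM of 11 gonadal somatic and mesenchymal markers (log axis) in the 8 floxed libraries; each point is a library with its replicate number, coloured by group. CKO-labelled 2 and 3 lie at marker sums of 19.5 and 9.76 RPM with 55.0 and 49.1 RPM of Spry2, and control 1 at 12.9 RPM with 51.2 RPM.

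The promoter of Spry2 is shown because it was the promoter among the members' in which the core sequence bound by PRDM1 was found. It spans chr14:105896770-105897069 on the minus strand of GRCm38.p6, printed 5′ to 3′ along the gene as RefSeq gives it. Capitals mark the match to AGNGAAAG, here on the opposite strand, which begins at base 138 from the 5′ end, 113 bases before the start site. Both strands were searched in the 9 start windows that the RefSeq table held for 7 of the 10 genes, and 1 of the 9 matched, where 8.63% of 32851 promoters of the same length held a match. The ETS motif CCGGAAGT and the Capicua motifs TGAATGAA and TGAATGGA were found in none of the 9, and in 3.89%, 1.3% and 1.2% of all promoters. A match of letters shows no binding, and no match says nothing of the factor.
Spry2: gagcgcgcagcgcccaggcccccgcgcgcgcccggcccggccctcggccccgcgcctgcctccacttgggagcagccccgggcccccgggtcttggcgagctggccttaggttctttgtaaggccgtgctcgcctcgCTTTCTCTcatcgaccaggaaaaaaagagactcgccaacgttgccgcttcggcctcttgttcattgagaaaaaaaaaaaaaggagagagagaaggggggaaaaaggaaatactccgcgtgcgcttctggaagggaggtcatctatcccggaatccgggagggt

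Among the receptors, Fgfr1 measured 93.3, 116, 114 and 93.3 RPM in controls 1 to 4 and 84.5, 84.9, 90.4 and 90.8 RPM in CKO-labelled 1 to 4. Every CKO-labelled library was below every control, by a log2 difference of -0.24 ± 0.11 (SE) that did not pass the test (limma adjusted p = 0.398). Fgfr2 measured 48.3, 26.7, 36.8 and 48.0 RPM in controls and 46.2, 44.9, 39.3 and 53.6 RPM in CKO-labelled libraries. Its groups overlapped, and the 95% interval of the log2 difference ran from -0.16 to 0.62.

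Of the ETS factors, Etv1 measured 17.1, 29.8, 10.9 and 12.0 RPM in controls and 26.5, 37.6, 15.5 and 17.9 RPM in CKO-labelled libraries. The groups overlapped widely, and the log2 difference of 0.48 ± 0.31 (SE) did not pass (limma adjusted p = 0.611). Etv4 measured 13.54, 23.1, 19.3 and 20.7 RPM in controls and 11.6, 14.5, 15.5 and 14.7 RPM in CKO-labelled libraries. Control 1 lay among the CKO-labelled libraries and the other controls lay above them, with a log2 difference of -0.40 ± 0.19 (limma adjusted p = 0.437). Etv5 measured 376, 296, 339 and 335 RPM in controls and 327, 304, 315 and 287 RPM in CKO-labelled libraries, overlapping groups. Its 95% interval, from -0.32 to 0.07 on the log2 scale, was the narrowest of the 10 genes.

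Of the other inhibitors, Spred1 measured 47.7, 73.2, 67.2 and 57.7 RPM in controls and 45.5, 48.9, 46.5 and 37.9 RPM in CKO-labelled libraries. It overlapped through control 1 alone, and the log2 difference of -0.44 ± 0.15 (SE) missed the threshold (limma adjusted p = 0.189). With each library left out in turn its adjusted p stayed between 0.0537 and 0.406. Dusp6 measured 15.6, 23.3, 25.8 and 29.4 RPM in controls and 15.1, 17.9, 21.5 and 27.5 RPM in CKO-labelled libraries. Spry1 ran from 24.7 to 39.0 RPM in controls and from 19.2 to 35.8 RPM in CKO-labelled libraries. Spry4 ran from 11.2 to 20.5 RPM and from 10.4 to 15.7 RPM. These 3 overlapped, with 95% intervals of the log2 difference from -0.66 to 0.29, -0.58 to 0.32 and -0.62 to 0.30.

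**Figure D4:**
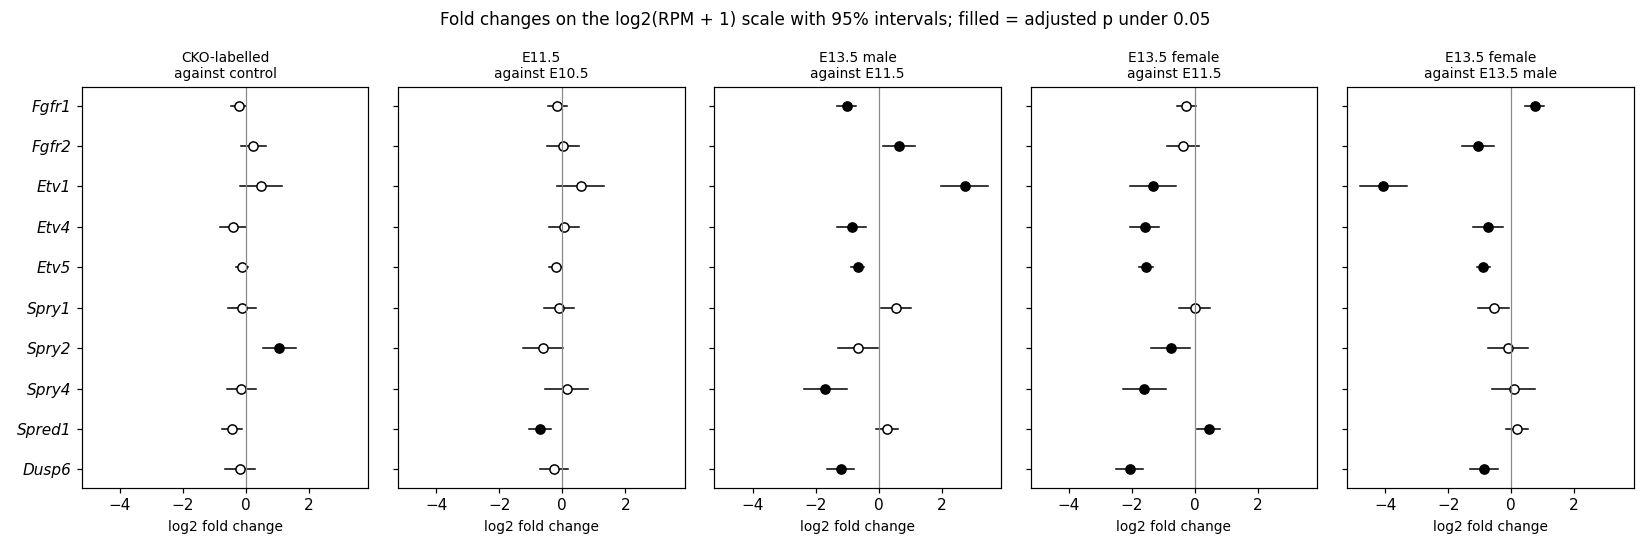
Log2 differences of the 10 genes on the log2(RPM + 1) scale in the 5 comparisons, with 95% intervals from limma; filled points passed an adjusted p of 0.05. Spry2 at 1.06 is the filled point in CKO-labelled against control, and Etv1 spans 2.73 in males to -1.33 in females.

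The tables were normalised separately and differ in strain mix, reporter and sort, so the E11.5 controls and the wild-type E11.5 libraries are given side by side with no test. Spry2 averaged 32.7 ± 12.96 RPM (SD, n = 4) in controls and 17.5 ± 3.82 RPM (SD, n = 2) in wild-type cells. Dusp6 averaged 23.5 ± 5.87 RPM in controls and 59.7 ± 0.308 RPM in wild-type cells, and Etv4 19.2 ± 4.06 and 44.5 ± 6.73 RPM. Etv5 averaged 337 ± 32.7 and 339 ± 38.0 RPM, and Fgfr1 104 ± 12.5 and 97.4 ± 1.28 RPM. In the same order, Etv1 averaged 17.5 ± 8.67 and 6.69 ± 1.01 RPM, and Fgfr2 39.9 ± 10.4 and 27.3 ± 9.99 RPM. Spred1 averaged 61.4 ± 11.2 and 44.8 ± 3.34 RPM, and Spry1 30.3 ± 6.68 and 23.1 ± 2.52 RPM. Spry4 averaged 15.7 ± 4.03 and 25.9 ± 12.9 RPM.

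The pathway above and around the 10 genes was read from 8 lists. They were chosen with earlier results of these data known, so counts over them only describe the listed genes. Of 22 FGF ligand genes, all were in both tables, 18 stayed under 5 RPM in every library and 3 (Fgf2, Fgf6 and Fgf7) were listed at 0 in all 16. None passed the filter in the floxed table. Fgf4, an FGF of pluripotent cells that was singled out after its values were seen, was listed at 0 in all 4 controls and at 3.95, 6.16, 8.04 and 5.36 RPM in CKO-labelled libraries 1 to 4. The 91 reads in CKO-labelled libraries against a floor of 3 reads over the control group put it at least 33.5-fold higher. Because Fgf4 was picked for these values and did not pass the filter, no test is given and the difference only describes levels. In wild-type cells it was 1.35 and 1.14 RPM at E11.5 and at most 0.334 RPM elsewhere. Of the 3 ligands tested in the wild-type table, the intracellular factors Fgf13 and Fgf11 rose from E11.5 to 18.6 ± 5.89 and 6.68 ± 2.08 RPM (SD, n = 2) in E13.5 females, and the secreted ligand Fgf5 fell. Fgf11 passed the filter through the female libraries alone, and Fgf13 through them and E13.5 male library 1 (5.34 RPM). Both were thus tested because they are high in females, and their rises only describe levels.

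In CKO-labelled cells, 5 of the 54 genes tested over the lists were called (9.26%), against 2.43% of all genes. Because the lists were chosen with earlier results known, this share is not read as a result about the pathway. Ext1, a polymerase of the heparan sulfate chains that FGFs need, rose from 13.7 ± 4.80 to 44.6 ± 5.96 RPM (SD, n = 4), by 1.69 ± 0.23 (SE) on the log2 scale (limma adjusted p = 0.000893). It was the 1 gene called of 4 tested co-receptor genes. Of 5 other receptor tyrosine kinases tested, Kit, the receptor for KIT ligand, fell from 248 ± 19.8 to 185 ± 15.8 RPM and Erbb3, outside the naming rule and named after its values were seen, rose from 32.4 ± 1.90 to 51.1 ± 6.93 RPM (limma adjusted p = 0.0360 and 0.0183). Of 11 other feedback inhibitors tested, the nuclear ERK phosphatase gene Dusp4 fell from 191 ± 12.0 to 144 ± 11.8 RPM (limma adjusted p = 0.0403). Of 9 other ERK targets, the ephrin receptor gene Epha2 fell from 18.3 ± 1.57 to 9.25 ± 1.62 RPM (limma adjusted p = 0.0148). None of 8 adaptors, 13 RAS-RAF-MEK-ERK cascade genes or 4 ETS repressors passed. Whether these 5 calls hold under the alternatives run for Spry2 was not tested. The part of somatic cells in them was not tested either.

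Between E10.5 and E11.5, 1 gene rose and 2 fell of 70 tested across the lists (4.29%, beside 4.28% of all genes). The syndecan gene Sdc4, encoding a heparan sulfate proteoglycan, rose by 0.75 ± 0.19 (SE) on the log2 scale. The ERK phosphatase gene Dusp9 fell by 0.63 ± 0.16 and the cyclin gene Ccnd1 by 1.65 ± 0.46 (limma adjusted p = 0.019, 0.019 and 0.0343). The fall of Ccnd1 rested on 12 and 18 reads at E10.5 and 0 and 12 reads at E11.5.

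Over the 8 lists, 18 of 70 genes tested rose and 18 fell from E11.5 to E13.5 in males, and 25 rose and 20 fell in females. The genes tested include some that passed the filter only through E13.5 libraries, and rises of those only describe levels. Of all genes, 22.3% rose and 15.9% fell in males and 31.2% rose and 20.0% fell in females, and the counts of each list are read against these shares. The other feedback inhibitors did not move one way: 5 of 13 rose and 5 fell in males, and 6 rose and 4 fell in females, each above the share of all genes. Dusp9 went from 23.4 ± 4.08 RPM (SD, n = 2) at E11.5 to 59.6 ± 4.90 RPM in males and 316 ± 0.349 RPM in females, the reverse order of Dusp6. Dusp5, a nuclear phosphatase gene, fell from 24.2 ± 6.79 to 10.1 ± 3.26 RPM in males and rose to 72.3 ± 0.852 RPM in females. Dusp4 followed the order of Dusp6, from 161 ± 3.37 to 118 ± 9.65 and 43.7 ± 8.63 RPM. The log2 differences between females and males were 2.39, 2.76 and -1.42 for Dusp9, Dusp5 and Dusp4 (limma adjusted p = 1.6e-12, 1.41e-09 and 3.12e-09).

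**Figure D5:**
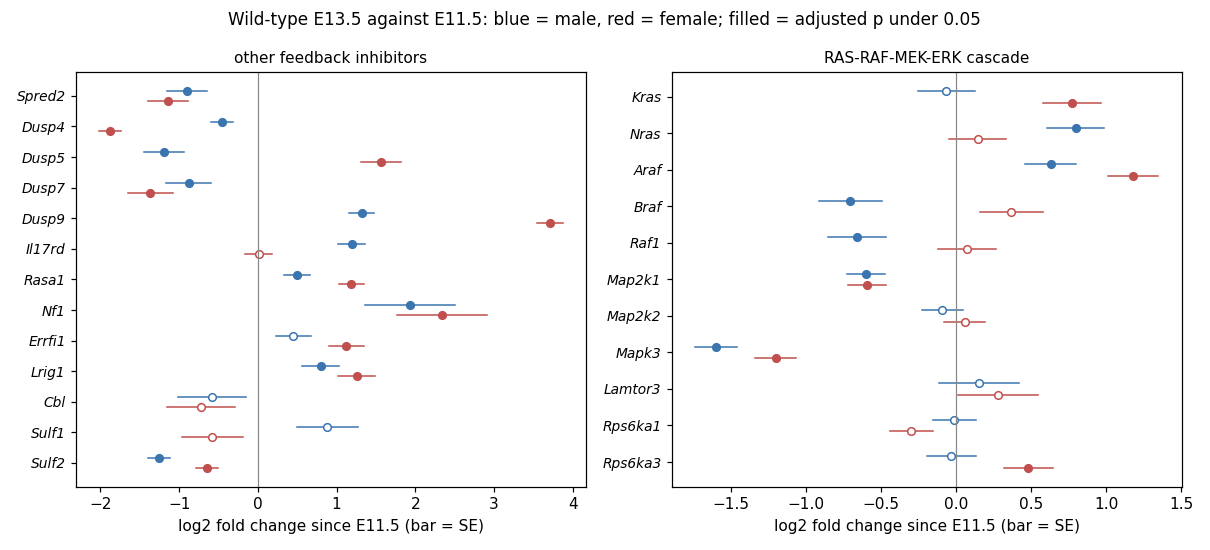
Log2 fold changes from E11.5 to E13.5, on the log2(RPM + 1) scale, of tested genes of 2 lists, other feedback inhibitors and the RAS-RAF-MEK-ERK cascade, in males (blue) and females (red); bars are the SE and filled points passed an adjusted p of 0.05. Dusp9 rises by 1.32 in males and 3.71 in females, while Mapk3 falls by 1.60 and 1.20.

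Of 10 other receptor and co-receptor genes, 3 rose and 1 fell in males, and 4 rose and 2 fell in females, numbers close to the shares of all genes. Ndst1, Gpc4 and Gpc6 of this list passed the filter only through E13.5 libraries, so its counts are not read as a result. Fgfr3 was 8.97 ± 2.21 RPM (SD, n = 2) at E11.5, 5.01 ± 1.88 RPM in males and 71.0 ± 1.11 RPM in females, a difference between the sexes of 3.62 ± 0.33 (SE) on the log2 scale (limma adjusted p = 8.28e-10). Sdc4 went from 40.0 ± 5.09 to 204 ± 25.3 RPM in males and 28.1 ± 6.39 RPM in females. At E13.5 the females thus held more Fgfr3 and Fgfr1 transcript and the males more Fgfr2 and Sdc4. Of 6 other receptor tyrosine kinases, 3 rose and 1 fell in males and 4 rose and 1 fell in females, with the rising shares above those of all genes. However, Ret and Igf1r passed the filter only through E13.5 libraries, and Met only with the E13.5 females. The counts are therefore not read as a result about this list. Ret, the receptor for GDNF, rose from 0.764 ± 0.128 to 23.9 ± 2.59 RPM in males and 9.27 ± 1.09 RPM in females. Kit fell from 209 ± 16.3 to 140 ± 4.68 RPM in males and stood at 208 ± 14.4 RPM in females.

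Within the cascade, 2 of 12 genes rose and 5 fell in males, and 3 rose and 3 fell in females. In females both counts were close to the shares of all genes. The RAF gene Araf rose in both sexes, from 41.1 ± 6.61 RPM (SD, n = 2) at E11.5 to 63.8 ± 2.39 RPM in males and 93.8 ± 0.254 RPM in females (limma adjusted p = 0.00388 and 1.63e-06). Braf fell in males, from 35.4 ± 3.44 to 21.4 ± 2.35 RPM, stood at 46.1 ± 5.76 RPM in females and differed between the sexes by 1.07 ± 0.21 (SE) on the log2 scale (limma adjusted p = 0.000171). The ERK gene Mapk3 fell in both sexes, from 153 ± 15.5 RPM (SD, n = 2) at E11.5 to 49.8 ± 3.22 RPM in males and 65.7 ± 0.441 RPM in females. Of 11 adaptors, 3 rose and 2 fell in males and 4 rose and 3 fell in females, again close to the shares of all genes. The RAS activator gene Sos1 rose from 24.5 ± 4.43 to 58.7 ± 6.29 RPM in males and 70.6 ± 0.985 RPM in females. Rasgrp1, another RAS activator gene, rose from 1.24 ± 0.147 to 20.3 ± 1.73 RPM in males and 4.07 ± 0.440 RPM in females. It passed the filter through the male libraries alone.

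Of 10 other ERK targets, 1 rose and 4 fell in males, and 2 rose and 5 fell in females, with the falling shares above and the rising shares below those of all genes. The immediate-early gene Ier3 fell from 24.8 ± 0.106 RPM (SD, n = 2) to 5.53 ± 2.15 RPM in males and 2.46 ± 1.54 RPM in females. Ccnd1 rose in both, from 1.71 ± 2.42 to 5.48 ± 0.280 and 69.4 ± 7.68 RPM. Of 5 ETS repressor genes, Etv6 rose in males, from 22.5 ± 5.29 to 37.6 ± 2.62 RPM, and Cic, which encodes Capicua, fell in females from 134 ± 11.2 to 88.5 ± 19.9 RPM (limma adjusted p = 0.0238 and 0.00077).

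For the 3 genes of the axis with the largest log2 changes in a wild-type comparison, the genes with the most similar values were sought over the 8 wild-type libraries, among 8404 genes averaging 10 RPM or more. For Etv1 these were Ooep, Cthrc1 and Dppa3, with Pearson r of 0.993, 0.992 and 0.989 on log2 values. Dppa3 is the gene whose reporter was used to sort these cells, and it averaged 6283 RPM in E13.5 males and 2478 RPM in females. For Dusp6 they were Klf8, Mif and Akr1b3 (0.994, 0.992 and 0.991), and for Spry4 Wsb2, Mtch1 and Afap1 (0.986, 0.982 and 0.979). The 8 libraries fall into 4 pairs that differ in stage or sex, so these values describe likeness across those groups and carry no test.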

How the data were processed

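RNA of sorted PGCs was measured in 16 libraries. Per the submitters' processing notes, reads were processed with cutadapt 1.3, TopHat 1.4.1 and Cufflinks 2.2.0 on mm10; cDNA was amplified with 11 cycles, from 1 ng of RNA for the wild-type libraries, per the labels. The deposited values are RPM per gene by the authors, with no length correction; 92 ERCC spike-ins in the wild-type table were not used. Within a library 99.6% to 99.8% of values were whole multiples of 1 step within 0.05 reads, which gave the depths. Precision is limited by these depths and by 2 or 4 libraries a group.

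The limma package (3.58.1, R 4.3.3; moderated variance with a mean trend) was run on log2(RPM + 1) for genes reaching 5 RPM in 4 floxed libraries or in 2 wild-type ones, with Benjamini-Hochberg adjustment over all genes tested. Fold changes on this scale understate changes of low genes; folds in RPM are ratios of group means. The 4 wild-type groups shared 1 fit. Scripts were tested on simulated data. The 10 genes, the gene lists and the tests were chosen with earlier results of these data known. Named beside the 10 genes are up to 4 genes per pathway list with the smallest p among those called. A gene of the cascade list that this rule picked is not reported here. Alternatives were pseudocounts of 0.1 and 10, no filter or 20 RPM, median-ratio and quantile scaling, no variance trend, replicate number as a block, fits of only the groups compared, and leaving out each library. Their results are given for the genes of the axis and for counts of calls, not for single genes of the pathway lists. Chosen after seeing the data were voom (in limma) applied to the recovered reads, leaving out control 1 and CKO-labelled 4, and a covariate for somatic markers. Coordinates, promoters and gene names came from RefSeq (GRCm38.p6).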

Additional observations from a re-analysis of the deposited data

Results flagged for a closer look

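For 6 of the 10 genes the change from E11.5 to E13.5 differed between the sexes in wild-type cells, by limma's test of females against males, which is the test of that difference because both changes start from the same E11.5 libraries. On the log2 scale the female change minus the male change was 0.75 for Fgfr1 (adjusted p = 0.000168), -1.04 for Fgfr2 (0.00151), -4.06 for Etv1 (6.48e-10), -0.74 for Etv4 (0.0114), -0.88 for Etv5 (1.58e-07) and -0.87 for Dusp6 (0.00178). In each case both female libraries lay on the same side of both male libraries, as for 71.1% of all genes tested. Of all genes, 37.6% were called in females against males. The calls of Etv4 and Dusp6 were lost without male library 1 (limma adjusted p = 0.112 and 0.0708). No library of the control or CKO-labelled groups stood far enough from its group to be flagged for any of the 10 genes, and groups of 2 cannot be checked this way.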

How the results depend on the processing

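Of 50 combinations of gene and comparison, 22 were called; 14 stayed called under every alternative run, and none of the 22 changed direction. The number of the 10 genes called in CKO-labelled against control, 1, became 0 without a filter, without a variance trend and with the somatic covariate, and ran from 0 to 1 with each library left out. The number called from E10.5 to E11.5, 1, became 0 without a filter, without a trend and with the 2 groups fitted alone, and ran from 0 to 1 with each library left out. Over all genes, the 228 CKO calls became 139 at 20 RPM and 137 to 204 with each library left out (137 without CKO-labelled 2). The 460 calls from E10.5 to E11.5 became 80 without a filter, 27 without a trend, 79 with the groups fitted alone and 105 to 486 with each library left out. The cause was not tested.

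Changes of direction occurred in 8 combinations that were not called. Fgfr2 from E10.5 to E11.5 was -0.019 and -0.016 with median-ratio and quantile scaling, -0.18 with voom and -0.35 to 0.38 with each library left out. Spry4 was -0.13 in females against males with quantile scaling and -0.070 to 0.23 with each library left out; from E10.5 to E11.5 it was -0.078 with voom and -0.37 to 0.65. With each library left out, Spry1 ran from -0.26 to 0.030 in CKO, -0.35 to 0.15 from E10.5 to E11.5 and -0.12 to 0.11 in females against E11.5 (0.016 with voom), Etv4 from -0.15 to 0.26 from E10.5 to E11.5, and Spry2 from -0.46 to 0.23 in females against males.

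Median-ratio and quantile scaling moved the median of all genes by -0.11 and -0.15 in females against E11.5, with 2819 higher and 2616 lower calls and 2731 and 2811, beside 3354 and 2148. In males against E11.5 they gave 1996 and 2002, and 1989 and 1950, beside 2392 and 1713, and in females against males 2158 and 1924, and 2082 and 2109, beside 2280 and 1758. From E10.5 to E11.5 median-ratio scaling gave 212 higher and 280 lower, beside 248 and 212. Same-numbered floxed libraries correlated at 0.24, 0.02, 0.25 and 0.18. CKO-labelled libraries 1, 3 and 4 were closest to the control of their own number, and library 2 to control 3. The labels do not say what a number shares, so the main fit used no pairs, and whether the libraries are paired is not settled. Taken by number, every CKO-labelled library was above its control for Spry2 and Etv1. It was below its control for Fgfr1, Etv4, Spred1 and Dusp6, and the other genes were mixed. With the replicate block, 314 genes were called in CKO with Spry2 among them (adjusted p 0.00279), and 559, 4160, 5563 and 4099 in the wild-type comparisons; no gene of the 10 gained or lost a call. Depth limits Etv1 in females most, at 8 and 9 reads.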
